A study of Mus musculus with 4 samples.

Results

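The Bcl2 family is a set of related proteins that decide whether a cell opens the outer membrane of its mitochondria and dies. The 10 genes described here were taken by name from the deposited expression table, which lists 46517 genes, and each name matched 1 row. Of these, 3 encode survival proteins (Bcl2, Bcl2l1 and Mcl1), 2 encode proteins that form the membrane pore (Bax and Bak1), and 5 encode BH3-only proteins, which trigger the pore or block the survival proteins (Bcl2l11, Bbc3, Pmaip1, Bid and Bad). The latter 7 are called the killing members below. Levels were measured by mRNA sequencing of LSK cells, the fraction of mouse bone marrow that lacks lineage markers, carries Sca-1 and c-Kit, and holds the blood stem cells and early progenitors. The mice were of the C57BL/6 strain and 8 to 10 weeks old. There were 2 libraries of Setd2f/f cells, the wild-type controls, and 2 of Setd2D/D cells, in which Setd2 was knocked out, called the knockouts below. Setd2 is the enzyme that trimethylates histone H3 at lysine 36 (H3K36me3) in the bodies of active genes. The study's title links it to quiescence in blood stem cells and to the elongation of transcripts. The sources used here do not give the Cre line that made the deletion, the deleted exons, or whether each library came from its own mice, so p-values reflect the spread among these libraries alone, and that spread may be technical.

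In a healthy cell the survival proteins hold Bax and Bak1 and the BH3-only proteins in check. When BH3-only proteins are made or activated in excess, Bax and Bak1 assemble into pores, cytochrome c leaves the mitochondria, and the apoptosome switches on the caspases. Blood stem and progenitor cells depend on Mcl1 for survival, and late red cell precursors on Bcl2l1. Much of the control acts on the proteins, through phosphorylation, cleavage and turnover, which mRNA levels do not show.

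All members share a short helix, the BH3 domain, which in the killing members fits into a groove of the survival proteins. A search of the reading frame of the principal coding transcript for leucine, any 3 residues, glycine, alanine or serine, and aspartate found 1 match in each of 9 members and 2 in Pmaip1. The fifth residue was glycine in 8 members, alanine in Bbc3 and serine in Bad. The coding bases around each match are shown for 9 members because this stretch is what the survival and the killing members have in common; capitals mark the 6 codons of the match, with 6 codons on either side in lower case. They were read from GENCODE M21 transcripts on GRCm38, and each stretch lies in the coding part of a single exon.
Bcl2, codons 94 to 99 of 236, exon 1, chr1:106712566-106712619, minus strand: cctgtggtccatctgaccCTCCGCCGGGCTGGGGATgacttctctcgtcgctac
Bcl2l1, codons 90 to 95 of 233, exon 2, chr2:152829688-152829741, minus strand: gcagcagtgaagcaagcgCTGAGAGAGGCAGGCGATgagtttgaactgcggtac
Mcl1, codons 194 to 199 of 331, exon 1, chr3:95659418-95659471, plus strand: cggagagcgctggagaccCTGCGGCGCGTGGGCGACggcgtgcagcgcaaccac
Bax, codons 63 to 68 of 192, exon 3, chr7:45465988-45466041, minus strand: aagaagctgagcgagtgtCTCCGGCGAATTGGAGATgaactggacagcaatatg
Bak1, codons 76 to 81 of 209, exon 4, chr17:27022522-27022575, minus strand: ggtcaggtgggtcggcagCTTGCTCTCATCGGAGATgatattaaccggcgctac
Bcl2l11, codons 150 to 155 of 196, exon 3, chr2:128147132-128147185, plus strand: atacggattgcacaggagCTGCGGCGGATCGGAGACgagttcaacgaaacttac
Bbc3, codons 141 to 146 of 193, exon 3, chr7:16313755-16313808, plus strand: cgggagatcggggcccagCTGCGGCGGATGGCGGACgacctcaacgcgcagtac
Bid, codons 90 to 95 of 195, exon 4, chr6:120897280-120897333, minus strand: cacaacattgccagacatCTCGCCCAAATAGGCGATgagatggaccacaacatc
Bad, codons 151 to 156 of 204, exon 3, chr19:6950774-6950827, plus strand: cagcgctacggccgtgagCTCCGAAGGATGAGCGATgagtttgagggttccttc

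The 10 members kept nearly the same order of abundance in all 4 libraries. Mcl1 was highest, with a mean over the libraries of 107.0 TPM (a transcript level corrected for length and scaled to the library), and Pmaip1 was lowest, at 1.97 TPM. Between them came Bak1 at 65.8, Bax at 54.4, Bid at 44.2, Bad at 28.6, Bcl2l1 at 20.9, Bcl2 at 18.8, Bcl2l11 at 13.0 and Bbc3 at 7.93 TPM. Bak1 and Bax overlapped in their ranges, as did Bax and Bid, Bcl2l1 and Bcl2, and Bcl2 and Bcl2l11, while the other neighbours in this order did not. The members together made up between 350.9 and 378.0 TPM in a library.

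**Figure D1:**
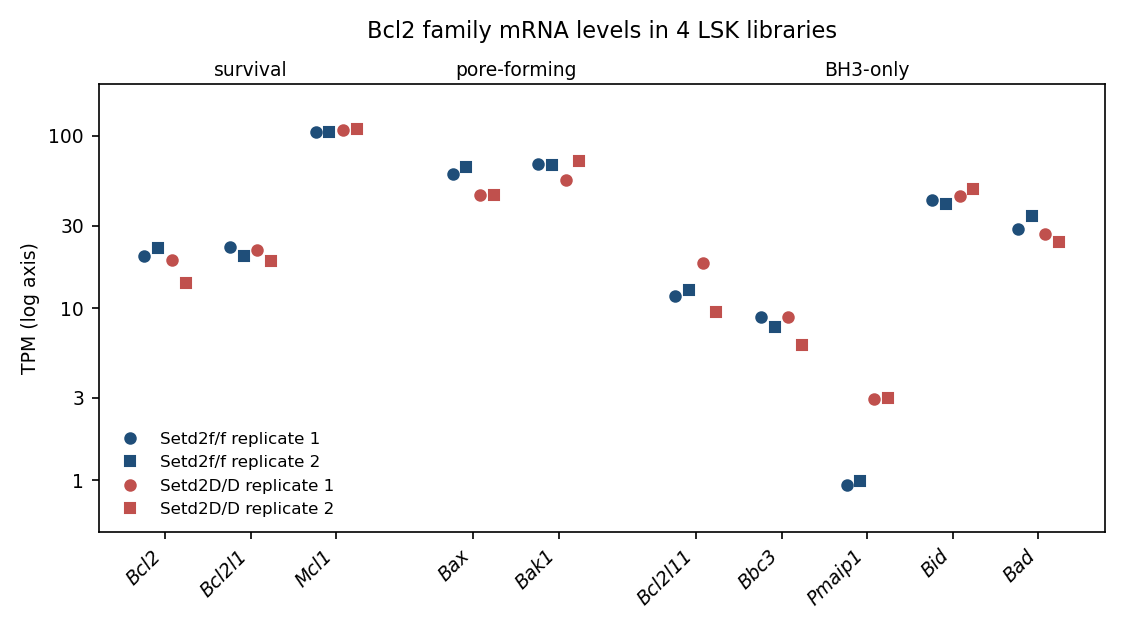
TPM on a log axis for each member, grouped by role, with 1 point per library (blue, Setd2f/f; red, Setd2D/D; circles, replicate 1; squares, replicate 2). Bax and Pmaip1 show the widest gaps between the genotypes relative to the gaps between replicates, and Mcl1 lies between 105.3 and 109.3 TPM in all 4 libraries.

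The libraries were first checked against their labels. Setd2 was at 78.9 and 68.0 TPM in the controls and at 43.4 and 49.5 TPM in the knockouts, lower in both knockout libraries. Its limma log2 change was -0.65 (limma adjusted p = 0.329), and in the authors' deposited table it was -0.73 (FDR 5.84e-06). These are whole-gene values, which also count transcripts missing just the deleted exons. Between 14360 and 14610 genes reached 1 TPM in a library. Setd2D/D replicate 1 stood apart, with a correlation across genes of 0.91 with each of the other 3 libraries, against 0.96 between the Setd2f/f libraries. The correlation of Setd2D/D replicate 2 with the controls was 0.93 and 0.94, higher than with the other knockout library. Both sort markers were present, Kit at 224.4 to 301.1 TPM over the 4 libraries, and Ly6a, which encodes Sca-1, at 123.8 and 127.5 TPM in the controls and at 46.5 and 80.6 TPM in the knockouts. Several sets of markers of other cells moved with genotype. For the counts below, 16.8% of all genes tested were higher in both knockout libraries than in both controls, and 27.6% were lower. The summed level of 15 erythroid markers was 192.5 to 227.5 TPM in the controls and 597.0 to 652.7 TPM in the knockouts, with 13 of the 15 above both control libraries, and that of 8 B cell markers was 282.3 to 513.0 and 179.1 to 248.7 TPM, with 5 of the 8 below both. The sum of 13 granulocyte-monocyte markers was 2790 to 3386 and 3437 to 5144 TPM (6 higher, 2 lower), of 7 megakaryocyte markers 67.0 to 77.6 and 96.4 to 100.5 TPM (4 higher, 1 lower), and of 7 mast cell and basophil markers 111.8 to 117.7 and 130.8 to 174.0 TPM (4 higher, 0 lower). Stromal and endothelial markers summed to 98.8 to 125.1 and 84.5 to 90.6 TPM and T and NK cell markers to 132.1 to 132.3 and 79.9 to 122.1 TPM, with 2 of 8 lower and 0 higher in each. That is near the share of all genes. Most of these sums came from Pecam1 (70.72 to 84.55 TPM) and Nkg7 (78.67 to 125.78 TPM), whose groups overlapped. The defining T cell markers Cd3e and Cd3d did not exceed 0.57 TPM in any library. Of the defining endothelial markers, Cdh5 did not exceed 0.56 TPM, while Emcn was at 42.9 and 24.3 TPM in the controls and lower in both knockouts, at 5.68 and 11.7 TPM. In these bulk libraries a change in the mix of cells and a change in RNA per cell cannot be told apart, and the part of the other cell types in the members' values was not tested.

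Between the genotypes, no member passed a test over all genes. In the limma fit on log2(TPM + 1), 0 of the 10 members had an adjusted p under 0.05, against 0.0678% of the 14755 genes tested, and the lowest was 0.377. At an unadjusted p under 0.05 stood Bax, lower, and Pmaip1, higher, against 11.2% of all genes. Of the genes at that level 615 were higher and 1032 lower in Setd2D/D, or 748 and 808 after rescaling the libraries by trimmed means of M values. The authors' deposited comparison gave 0 of the 10 members an FDR under 0.05, where 3.15% of its genes have one, and 2 (Bcl2 and Bax, both lower) an unadjusted p under 0.05. The groups did not overlap for 6 members, against 44.3% of the genes tested: 3 were higher in both Setd2D/D libraries (Mcl1, Pmaip1 and Bid; 16.8% of all genes) and 3 were lower (Bcl2, Bax and Bad; 27.6%). The median log2 change of the 10 was -0.09, near the -0.06 of all genes tested. Pmaip1 passed the filter of 1 TPM in 2 libraries only through the Setd2D/D libraries, so its place in these counts supports nothing, while the other 9 members reached 1 TPM in all 4 libraries.

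**Figure D2:**
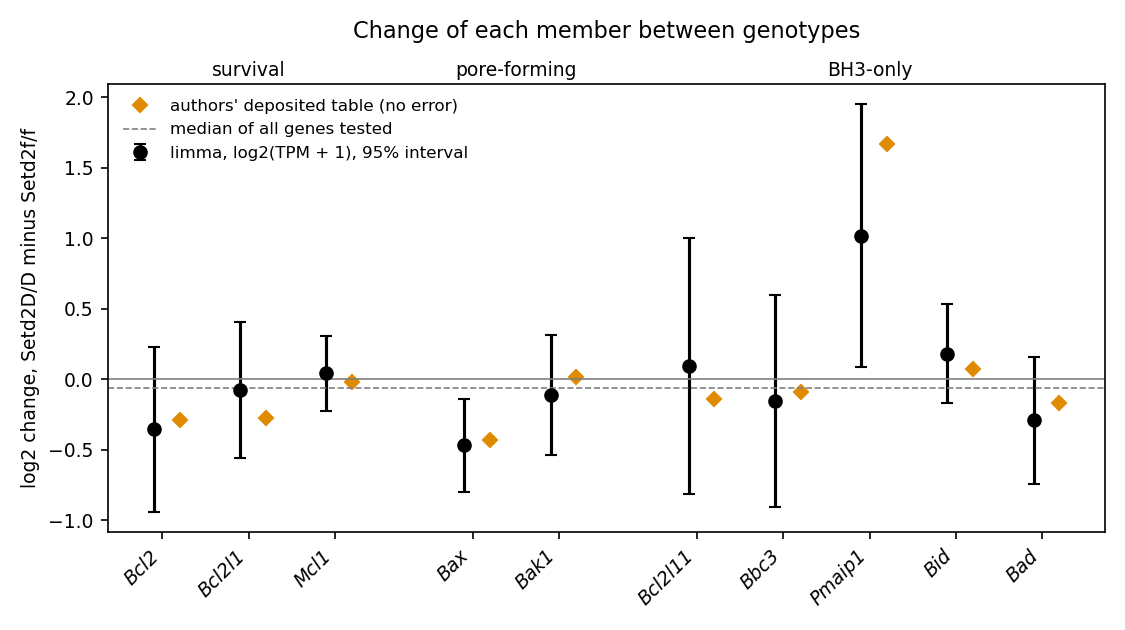
Log2 change of each member, Setd2D/D minus Setd2f/f: black points and bars are the limma estimate and its 95% interval, diamonds are the authors' deposited table, and the dashed line is the median of all genes tested. The intervals of Bax and Pmaip1 lie off 0, and the other 8 intervals include it.

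Among the survival members, Mcl1 was the steadiest. Mcl1 (chromosome 3, 95658788 to 95663176) encodes a short-lived protein that binds Bak1 and several BH3-only proteins. Its level was 105.7 and 105.3 TPM in the controls and 107.8 and 109.3 TPM in the knockouts. The Setd2D/D libraries were both above the controls, by a ratio of mean levels of 1.03, and the limma log2 change was 0.04 with a 95% interval from -0.22 to 0.31 (limma adjusted p = 0.909). This interval corresponds to a ratio of 0.857 to 1.24 on the TPM + 1 scale.

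Bcl2 (chromosome 1, 106538178 to 106714274), the founding survival gene of the family, was at 19.9 and 22.4 TPM in the controls and at 19.0 and 14.0 TPM in the knockouts. The groups did not overlap, but Setd2D/D replicate 1 lay within 1 TPM of the lower control, and Setd2D/D replicate 2 was the lowest of the 4. The log2 change was -0.36 (SE 0.22, limma adjusted p = 0.590), and it was -0.15 when Setd2D/D replicate 2 was left out and -0.56 when Setd2D/D replicate 1 was. In the authors' deposited table the log2 change of Bcl2 was -0.29 (FDR 0.353).

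Bcl2l1 (chromosome 2, 152780668 to 152831728) encodes Bcl-xL, and by alternative splicing also a shorter product that promotes death. It was at 22.8 and 20.1 TPM in the controls and at 21.8 and 18.9 TPM in the knockouts. The groups overlapped, with replicate 1 above replicate 2 in each, and the log2 change was -0.07 with a 95% interval from -0.56 to 0.41 (limma adjusted p = 0.909). The erythroid markers given above were higher in the knockouts, where Bcl2l1 was not above the control range. The annotation has 9 Bcl2l1 transcripts, of which 8 are coding, and the table sums them.

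Of the pore-forming pair, Bax was lower in both knockout libraries, while Bak1 lay on either side of its controls. Bax (chromosome 7, 45461697 to 45466898), which waits in the cytosol and moves to mitochondria when activated, was at 60.4 and 66.4 TPM in the controls and at 45.6 and 45.3 TPM in the knockouts. Both knockout libraries were well below both controls, and they differed from each other by less than 1 TPM. The ratio of mean levels was 0.717, and the log2 change was -0.47 with a 95% interval from -0.80 to -0.14 (limma adjusted p = 0.377). In the authors' deposited table it was -0.43 (FDR 0.397). The log2 change stayed between -0.54 and -0.40 when any 1 library was left out, and the limma adjusted p was never under 0.236 in the 14 alternatives. Without Setd2f/f replicate 2 the unadjusted p of Bax was no longer under 0.05.

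Bak1 (chromosome 17, 27019810 to 27029009), which sits in the mitochondrial outer membrane, was at 68.5 and 67.7 TPM in the controls and at 55.4 and 71.5 TPM in the knockouts. Setd2D/D replicate 1 was the lowest and Setd2D/D replicate 2 the highest of the 4. The log2 change was -0.11 (SE 0.16, limma adjusted p = 0.835), and it became 0.07 without Setd2D/D replicate 1. The ratio of Bax to Bak1 was 0.882 and 0.981 in the Setd2f/f libraries and 0.822 and 0.634 in the Setd2D/D libraries, lower in both of the latter. The ratio of Mcl1 to Bax was 1.75 and 1.59 in Setd2f/f and 2.37 and 2.41 in Setd2D/D, and that of Bcl2 to Bax was 0.330 and 0.338 against 0.416 and 0.309, which overlap. These ratios contain Bax and are no independent sign of its change.

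Among the BH3-only members, Pmaip1 had the widest ratio between genotypes at the lowest level. Pmaip1 (chromosome 18, 66458533 to 66465565), also called Noxa, is a p53 target whose protein binds Mcl1 and promotes its breakdown. It was at 0.940 and 0.990 TPM in the controls and at 2.95 and 3 TPM in the knockouts, a ratio of mean levels of 3.08. Both knockout libraries were above both controls, and the replicates of each genotype lay within 0.05 TPM of each other. The limma log2 change was 1.02 (SE 0.36, limma adjusted p = 0.428), and without a filter on low levels or with any 1 library left out Pmaip1 no longer had an unadjusted p under 0.05. In the authors' deposited table the change was 1.67 on the log2 scale (FDR 0.461). At this level a library holds few Pmaip1 reads, and TPM values keep no record of how many.

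Bid (chromosome 6, 120891930 to 120916853), which links the death receptors to mitochondria once caspase-8 cleaves it, was the most abundant BH3-only gene. It was at 42.5 and 40.2 TPM in the controls and at 44.9 and 49.2 TPM in the knockouts, with no overlap, and the log2 change was 0.18 (SE 0.14, limma adjusted p = 0.646). Bad (chromosome 19, 6941861 to 6951899), which growth factor signalling holds inactive by phosphorylation and 14-3-3 binding, was at 28.8 and 34.4 TPM in the controls and at 26.9 and 24.2 TPM in the knockouts. Both Bad values in the knockout were below the controls, and the log2 change was -0.29 (SE 0.17, limma adjusted p = 0.571).

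Bcl2l11 (chromosome 2, 128126038 to 128162547) encodes Bim, which binds all the survival proteins and is induced when cytokines are withdrawn. It was at 11.7 and 12.8 TPM in the controls and at 18.1 and 9.43 TPM in the knockouts. The 2 knockout libraries were the highest and the lowest of the 4, so the log2 change of 0.09 has a 95% interval from -0.81 to 1 (limma adjusted p = 0.949). Leaving out Setd2D/D replicate 1 gave -0.34, and leaving out Setd2D/D replicate 2 gave 0.53. Bbc3 (chromosome 7, 16308393 to 16318205), which encodes the p53-induced protein Puma, was at 8.92 and 7.80 TPM in the controls and at 8.89 and 6.10 TPM in the knockouts. The groups overlapped (log2 change -0.16, SE 0.29, limma adjusted p = 0.873). Trp53, which encodes the p53 that induces both Bbc3 and Pmaip1, was at 203.7 and 221.1 TPM in the controls and at 218.1 and 206.3 TPM in the knockouts.

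The balance between survival and killing transcripts rested on a few abundant genes. The 3 survival members summed to 148.4 and 147.8 TPM in the controls and to 148.6 and 142.2 TPM in the knockouts, and Mcl1 made up between 71.2% and 76.9% of that sum. The 7 killing members summed to 221.8 and 230.2 TPM in the controls and to 202.8 and 208.8 TPM in the knockouts. Survival transcripts were thus the smaller part in every library, with a ratio to killing transcripts of 0.669 and 0.642 in Setd2f/f and 0.733 and 0.681 in Setd2D/D. Both knockout libraries were above both controls. The killing sum contains Bax, at 60.4 and 66.4 TPM in the controls and at 45.6 and 45.3 TPM in the knockouts. This ratio is therefore no independent sign of the change in Bax, nor is a ratio to Bax and Bak1 alone. The difference of mean log2 ratios was 0.11 with a pooled SD of 0.06 within groups, and it was 0.06 without Setd2D/D replicate 1. It is a description with no test, since the members were chosen together with earlier results of these data known.

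That small difference depended on how the members were weighted. Against Bax and Bak1 alone it was 0.25 on the log2 scale and against the BH3-only genes alone -0.06, since the pore-forming pair summed to 128.9 and 134.0 TPM in the controls and 101.0 and 116.8 TPM in the knockouts, while the BH3-only genes summed to 92.9 and 96.2 against 101.8 and 92.0 TPM. With each member given equal weight on the log2(TPM + 1) scale the difference was -0.17, the opposite direction, with both knockout libraries below both controls. Without Mcl1 it was -0.08 and the groups overlapped. With other family genes of known role added it was 0.14, with both knockout libraries above both controls. The direction of the difference thus changed with the weighting.

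**Figure D3:**
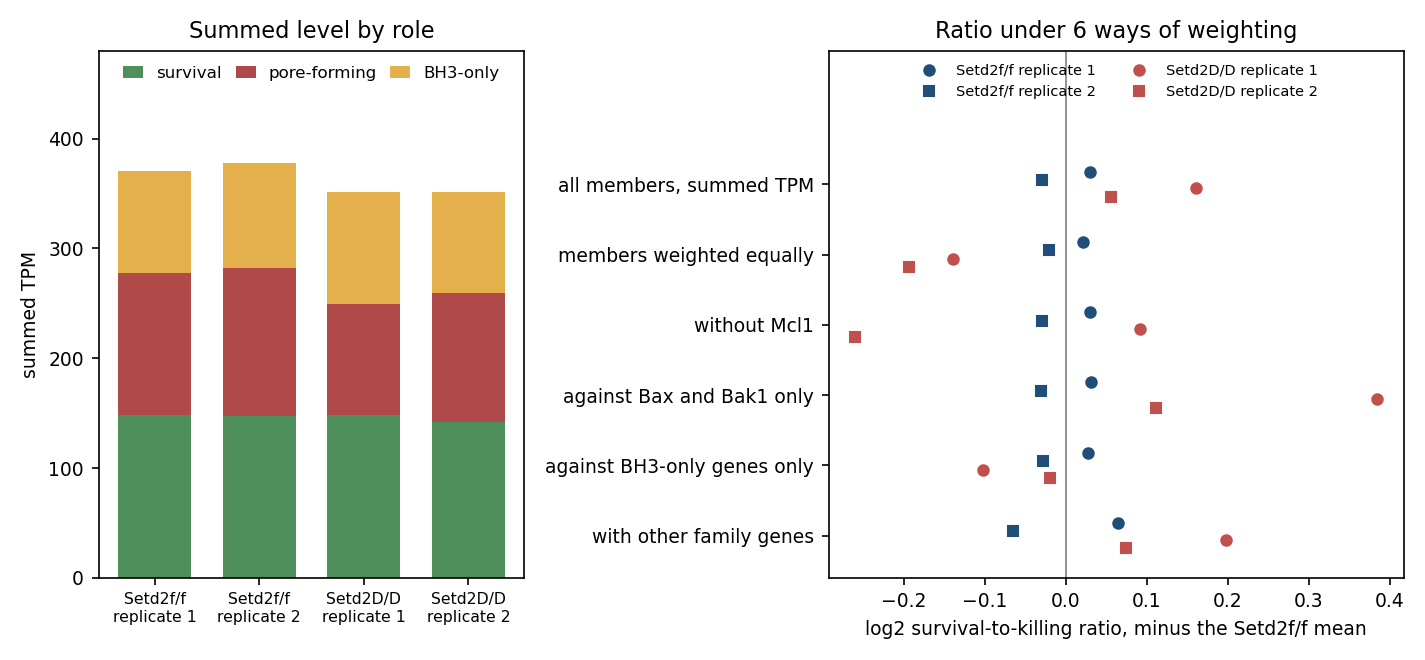
Left, summed TPM of the survival, pore-forming and BH3-only members in each library; right, the log2 survival-to-killing ratio of each library minus the Setd2f/f mean, under 6 ways of weighting the members. The Setd2D/D points lie right of both controls with summed TPM and left of both with equal weights.

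The limma changes, made from TPM, and the authors' deposited log2 changes had the same sign for 7 members and opposite signs for 3. These were Mcl1 (0.04 in limma and -0.02 in the authors' deposited table), Bak1 (-0.11 and 0.02) and Bcl2l11 (0.09 and -0.14), all near 0 in each. Some members share genomic ground with another gene, and whether reads were counted by strand is not given in the sources used here. Bad overlaps Gpr137 (17.8 to 24.4 TPM) on the opposite strand, Bid overlaps Bcl2l13 (14.7 to 20.6 TPM) and Bak1 overlaps Ggnbp1 (6.60 to 14.1 TPM), and without strand, reads from their shared stretches cannot be told apart. Bax shares its strand with the overlapping model Gm45808.

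Over the 4 libraries the profile of Mcl1 lay nearest to those of Opa1, Mtch2 and Trp53, with root mean square distances between centred log2 values of 0.04, 0.05 and 0.06, and that of Bcl2l1 to Dffa, Birc6 and Fbxw7 (0.05, 0.06 and 0.06). The median distance over the 75 other members and pathway genes compared was 0.16 for Mcl1 and 0.18 for Bcl2l1. With 4 libraries these are a description of flat profiles.

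Relatives of the family outside the 10 were then compared. Bok, a pore-forming relative of Bax and Bak1, was at 8.31 and 9.89 TPM in the controls and at 1.5 and 1.37 TPM in the knockouts. Both knockout libraries were far below the controls (ratio of means 0.158, log2 change -2.05, SE 0.31), but the limma adjusted p was 0.204 and the FDR in the authors' deposited comparison was 0.168. Bnip3, a mitochondrial protein with a BH3-like part that is induced by low oxygen, was at 30.2 and 25.8 TPM against 17.4 and 19.8 TPM (log2 change -0.57, limma adjusted p = 0.415). Bcl2l15 was listed at 0 in the controls and at 2.68 and 1.29 TPM in the knockouts, through which alone it passed the filter. Of the survival relatives, Bcl2l2 (Bcl-w) was at 17.4 ± 5.19 and 14.6 ± 2.38 TPM (mean ± SD, n = 2 libraries), and Bcl2a1a and Bcl2a1b, near-identical copies whose split is uncertain, did not exceed 0.38 and 1.39 TPM. Bcl2l12 was at 51.4 ± 10.5 and 38.1 ± 10.7 TPM, Bnip3l, which takes part in clearing mitochondria, at 129.6 ± 15.7 and 121.4 ± 13.0, Bcl2l13 at 16.7 ± 0.749 and 17.6 ± 4.14, Bcl2l14 at 2.79 ± 1.34 and 4.58 ± 2.01, Bmf at 2.04 ± 0.0707 and 2.57 ± 0.735, and Bik at 0.675 ± 0.587 and 0.355 ± 0.502. Bcl2a1d, Bcl2l10 and Hrk were listed at 0 in all libraries. Of the 15 relatives 9 were tested, and 0 passed limma over all genes, and the authors' deposited comparison had 0 with an FDR under 0.05. By limma at an unadjusted p under 0.05, 1 was higher (Bcl2l15) and 2 were lower (Bok and Bnip3), against 11.2% of all genes.

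Downstream of the pore, Cycs, which encodes cytochrome c, was at 28.2 and 39.3 TPM in the controls and 31.0 and 54.2 TPM in the knockouts. Its groups overlapped in TPM (limma adjusted p = 0.770), while the change in the authors' deposited comparison was 0.58 on the log2 scale (FDR 0.00555). Casp2, an initiator caspase, was at 115.2 ± 4.69 and 91.1 ± 1.54 TPM (limma adjusted p = 0.411). Its log2 change was -0.33 in limma but 0.02 in the authors' deposited table (FDR 0.980). Diablo, which blocks the caspase inhibitors, was at 67.6 ± 5.89 and 56.8 ± 3.64 TPM, and Endog, a mitochondrial nuclease, at 6.44 ± 2.78 and 2.99 ± 1.98. The authors' log2 changes of Diablo and Endog were -0.06 and -1.07. Of the 13 caspase and apoptosome genes, 0 passed limma over all genes. The authors' deposited comparison had 2 with an FDR under 0.05, against 3.15% of its genes. At an unadjusted p under 0.05 by limma were 2, against 11.2% of all genes. The list's median log2 change was -0.12, against -0.06 for all genes tested.

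The inhibitors of apoptosis proteins and the death receptor arm gave 0 calls by limma among the 7 and 8 genes tested. In the authors' deposited table they gave 0 as well. At an unadjusted p under 0.05 by limma, 1 was higher among the inhibitors (Birc3, at 40.3 ± 0.827 and 57.5 ± 12.1 TPM) and 1 was lower in the death receptor arm (Tradd, an adaptor of the tumour necrosis factor receptor, at 28.9 and 25.3 against 19.4 and 17.9 TPM). Of all genes tested, 11.2% stood at that level. Xiap, the most direct caspase blocker, was at 43.0 ± 10.9 and 32.4 ± 0.969 TPM. Its log2 change was -0.38 in limma but 0.00277 in the authors' deposited table. Naip2 was at 2.36 ± 0.431 and 4.03 ± 0.474 TPM, and Naip5 at 5.45 ± 0.375 and 6.61 ± 2.59. Casp8, which cleaves Bid, was at 125.8 ± 1.10 and 136.6 ± 8.44 TPM, its inhibitor Cflar at 51.6 ± 0.233 and 61.3 ± 10.8, and Ripk1 at 36.6 ± 0.141 and 42.1 ± 2.35. The receptor gene Fas did not exceed 0.48 TPM.

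Among 22 known partners and regulators of the members, 21 were tested and 0 passed limma. In the authors' deposited comparison 1, Stat5a, had an FDR under 0.05, against 3.15% of its genes. Stat5a, which carries cytokine signals to survival genes, was at 53.4 and 60.5 TPM in the controls and at 80.5 and 78.8 TPM in the knockouts. Both knockout libraries were above the controls (log2 change 0.48, SE 0.13, limma adjusted p = 0.365), and it was 0.49 in the authors' deposited comparison (FDR 0.0108). Foxo3, a transcription factor that induces Bcl2l11 and Bbc3, was at 52.3 ± 6.48 and 38.7 ± 1.98 TPM (limma adjusted p = 0.436), Nfkb1 at 145.5 ± 8.29 and 119.4 ± 9.33, and Rela at 59.1 ± 4.89 and 47.4 ± 1.81. At an unadjusted p under 0.05 by limma, 1 was higher (Stat5a) and 1 was lower (Foxo3), against 11.2% of all genes. None of 9 genes for outer membrane channels and mitochondrial shape reached that level by limma or passed the FDR of the authors' deposited table. Vdac1 was at 250.8 ± 28.3 and 212.5 ± 29.8 TPM, with a log2 change of -0.24 in limma but -0.01 in the authors' deposited table. Vdac3 was at 154.9 ± 7.88 and 138.7 ± 4.94 TPM, Dnm1l, which divides mitochondria, at 49.3 ± 4.44 and 43.6 ± 0.976, and Mfn2, which fuses them, at 28.1 ± 1.90 and 33.5 ± 4.18.

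**Figure D4:**
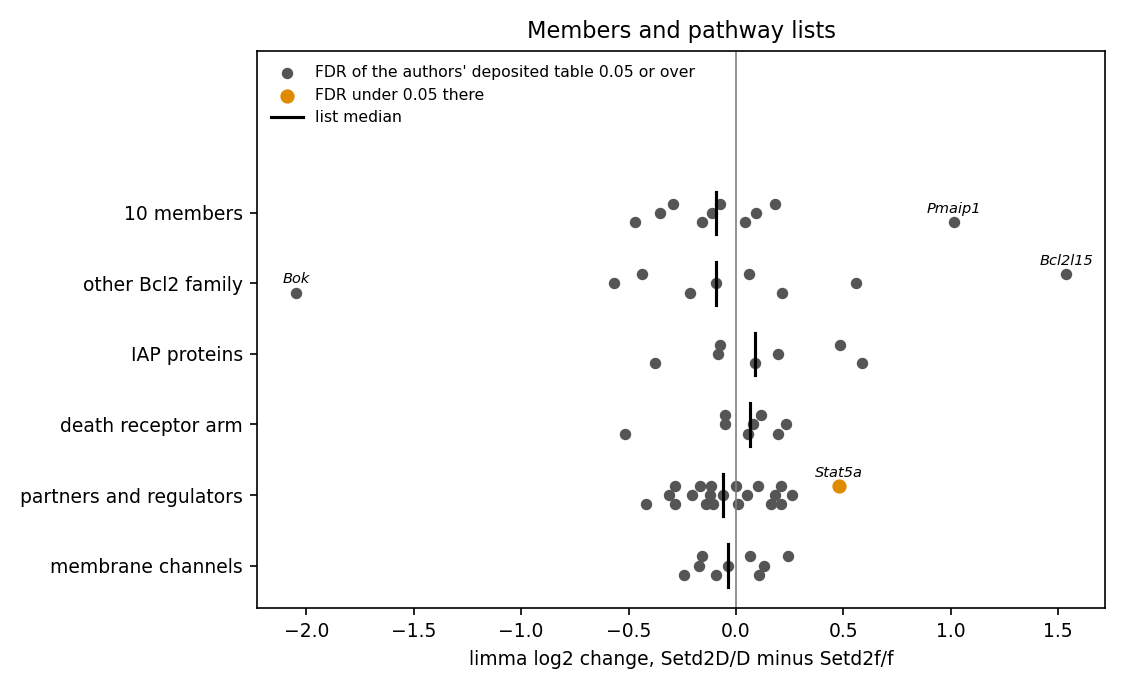
Limma log2 change of each tested gene, Setd2D/D minus Setd2f/f, for the 10 members and the pathway lists other than the caspases and apoptosome, with list medians as black bars. The orange point (Stat5a) has an FDR under 0.05 in the authors' deposited table; Bok, Pmaip1 and Bcl2l15 lie farthest from 0.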

How the data were processed

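The authors' 2 deposited tables give TPM for 46517 genes in each of 4 libraries, and their own test of genotype for 23955 genes. Per the submitters' processing notes, the authors used cutadapt, RSEM, edgeR and the build mm10, whose roles and versions the sources used here do not give. The authors' deposited table of the comparison holds, per the file headers, a fold change as a ratio and its log2. It also holds the mean log2 CPM, the F score of the authors' test, its p-value and FDR, all as deposited. Names containing a comma had split across fields in 5 rows of the first table and 2 of the second, and were joined again. TPM scales each library to the same total, so every value depends on all the others, and it keeps no depth; no interval from counts was given.

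Values were transformed to log2(TPM + 1), and the 14755 genes that reached 1 TPM in 2 or more libraries were fitted with limma 3.58.1 in R 4.3.3 (1 term for genotype, moderated variance with trend, 2-sided, Benjamini-Hochberg adjustment over all genes, threshold 0.05). The fold changes understate those of low genes. An exact permutation test of 2 libraries against 2 has 0.33 as its smallest p. No library pair held identical values (0 pairs). The limma code was tested on simulated data. Coordinates and transcripts came from GENCODE M21 on GRCm38, the assembly of mm10, which holds 46005 of the gene identifiers. Named genes were the 10 members, all detected relatives, and from each list the 4 of lowest p among genes averaging 1 TPM or more; Cycs, Trp53, Fas, Kit, Ly6a and the overlapping genes were named outside that rule, after their values were seen, and 1 gene that the rule names is not reported here. The members, lists and tests were chosen with earlier results of these data known. The alternatives changed the pseudocount (0.1, 0.5) or the filter (none, TPM 5), or used 3 rescalings, 2 forms of moderation, a replicate block, each library left out, and 5 weightings of the ratio.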

Additional observations from a re-analysis of the deposited data

How the results depend on the processing

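Members past an adjusted p of 0.05 numbered 0 under all 14 limma alternatives, and the lowest adjusted p of a member was 0.198. The 2 members at an unadjusted p under 0.05 became 1 with no filter, 1 with a filter at TPM 5 (where Pmaip1 was not tested), 1 with the replicate block, and 0 to 1 when a library was left out; neither Bax nor Pmaip1 was at that level without Setd2f/f replicate 2. Over the whole table the 10 genes past the threshold became 3 with a pseudocount of 0.1, 0 with no filter, 19 without the variance trend, 0 with the replicate block, and 0 whenever 1 library was left out, the lone library then being assumed to vary like the other group. The log2 change of Bax was between -0.54 and -0.40 and that of Pmaip1 between 0.998 and 1.53 over the alternatives. Of 139 alternative values for the members 5 changed sign, all when a library was left out: the range was -0.17 to 0.0239 for Bcl2l1, -0.29 to 0.0691 for Bak1, -0.34 to 0.53 for Bcl2l11 and -0.40 to 0.082 for Bbc3. Among the other named genes this held for Bcl2l2 (-0.51 to 0.0782), Bcl2l13 (-0.17 to 0.29), Bnip3l (-0.22 to 0.0303) and Naip5 (-0.16 to 0.55). The difference of log2 survival-to-killing ratios, 0.11, was -0.17 with equal weights, -0.0844 without Mcl1, 0.25 against Bax and Bak1 and -0.0608 against the BH3-only genes. It was 0.14 with other family genes of known role added, and 0.06 to 0.16 with a library left out. Same-numbered libraries share only a number: the correlation of their deviations from the group means, across genes, was 0.04. With the replicate block the ratio difference was 0.11. The cause of these changes was not tested.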
